A study of Mus musculus with 12 samples.

Results

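The 10 most abundant miRNAs of the imprinted Dlk1-Dio3 cluster were followed through small RNA libraries from the livers of 12 adult male mice. They were chosen by level, as the 10 rows with the highest mean CPM (reads of a miRNA scaled to a fixed total per library, close to the reads of all listed miRNAs) over all 12 libraries among the rows for either arm of 31 cluster miRNA numbers. Of 386 miRNA rows in the table, 14 belonged to those numbers. The level is therefore given below as a description, whereas the rule used no comparison between diet groups. The tenth member, miR-409-3p, had a mean of 6.19 CPM, and miR-410-3p lay just outside with 6.15 CPM. It took that place through obesogenic-fed sons of control-fed mothers, where miR-409-3p had a mean of 9.26 CPM. In the other groups its means were 4.67 to 5.75 CPM, below the 5.29 to 6.75 CPM of miR-410-3p. Comparisons of miR-409-3p that involve the first group are therefore not independent of the choice.

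The design crossed the mother's diet with the son's own diet, with 3 libraries in each of 4 groups. OO sons had obesogenic-fed mothers and were weaned onto the obesogenic diet. CO sons had mothers on the control diet and received the obesogenic diet themselves. OC sons had obesogenic-fed mothers and received the control diet, and both mothers and sons of CC received the control diet. The control chow held 7% simple carbohydrates and 3% lipids, and the obesogenic diet 10% simple carbohydrates and 20% lipids with sweetened condensed milk beside it. All sons were wild type mice of strain C57BL/6, taken from litters set to 6 pups, weaned on postnatal day 21 and killed after fasting on postnatal day 84. Neither mother nor litter of a son is given in the labels, so p-values here measure the spread between these libraries. One stem of unstated meaning recurs in the titles, in OO replicate 3 and in OC replicate 2, so whether these sons are littermates, which would bear on OO against OC, is not known. Sample title prefixes split fully with the mother's diet, and what the prefix stands for cannot be told apart from that diet. Title suffixes split in part with the sons' diet, and their meaning is not stated either. Between CO and CC they split fully, so there the suffix cannot be told apart from the son's diet.

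In the Dlk1-Dio3 domain the protein-coding genes Dlk1, Rtl1 and Dio3 are read from the chromosome inherited from the father, and the noncoding RNAs, miRNAs included, from that inherited from the mother. One group of miRNA hairpins lies in a transcript antisense to Rtl1, whose messenger RNA these miRNAs match perfectly and can cut. Another group lies further along, up to and within Mirg, and mice without it adapt poorly to the change of fuel at birth, when the liver first has to sustain blood glucose. The domain is known for strong expression in embryo, placenta and brain and for low expression in most adult tissues.

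The mature sequences show which molecules were counted and how far they can be told apart. They are given 5′ to 3′ as RefSeq annotates them on GRCm38.p6, with the seed (bases 2 to 8, which pair with target messengers) in capitals. All 16 listed rows of the domain, the 14 named above and 2 of other numbers, matched a RefSeq entry. First come the 5 arms of the 3 hairpins antisense to Rtl1.
miR-127-3p: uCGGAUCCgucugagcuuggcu
miR-434-5p: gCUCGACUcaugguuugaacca
miR-434-3p: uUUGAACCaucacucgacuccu
miR-136-5p: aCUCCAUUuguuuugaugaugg
miR-136-3p: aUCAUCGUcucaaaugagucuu

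The 5 members of the Mirg side follow, in their order along the chromosome.
miR-411-5p: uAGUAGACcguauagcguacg
miR-300-3p: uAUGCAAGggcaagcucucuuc
miR-381-3p: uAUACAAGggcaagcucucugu
miR-541-5p: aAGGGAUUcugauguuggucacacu
miR-409-3p: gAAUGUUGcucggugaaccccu

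The 10 members carried 10 different seeds, and what they target in the liver was not measured. No other listed row shared a seed with any of them. miR-381-3p and miR-300-3p were near copies, with 19 of 22 positions the same. Counted from the 5′ end, with the base of miR-381-3p first, they differed by A4G inside the seed and by G21U and U22C at the 3′ end. How the authors' counting divided reads that could belong to either is not given in the sources used here, so the separate values of this pair are uncertain. For the other 8 members, no annotated mature miRNA lay within 3 mismatches.

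For 2 hairpins both arms were members, and their precursors are shown with the mature arms in capitals, the 5p arm first.
Mir434: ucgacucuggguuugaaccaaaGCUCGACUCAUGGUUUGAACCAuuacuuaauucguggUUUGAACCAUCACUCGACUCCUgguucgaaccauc
Mir136: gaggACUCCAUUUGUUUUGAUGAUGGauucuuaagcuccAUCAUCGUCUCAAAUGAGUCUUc

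All members lie on the plus strand of chromosome 12 (GRCm38). The 70-base hairpin of Mir127 spans chr12:109592846-109592915, that of Mir434 chr12:109594506-109594599 and that of Mir136 chr12:109595327-109595388. All 3 lie opposite an exon of Rtl1, a retrotransposon-derived gene needed in the placenta, which GENCODE places on the minus strand at chr12:109589193-109600330. On the Mirg side, Mir411 spans chr12:109710175-109710256, Mir300 chr12:109724313-109724391 and Mir381 chr12:109726822-109726896, all outside other annotated genes. Mir541 at chr12:109742409-109742498 and Mir409 at chr12:109743158-109743236 lie in introns of the noncoding gene Mirg, on its strand. RefSeq held 34 hairpin genes for the rule's numbers, and 12 of them had a listed arm. These were 5 of 8 on the Rtl1 side, 0 of 2 near the noncoding gene Rian and 7 of 24 on the Mirg side. On the Rtl1 side Mir337, Mir540 and Mir665 lie outside Rtl1 itself, and 4 of the 5 hairpins opposite it had a listed arm.

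**Figure D1:**
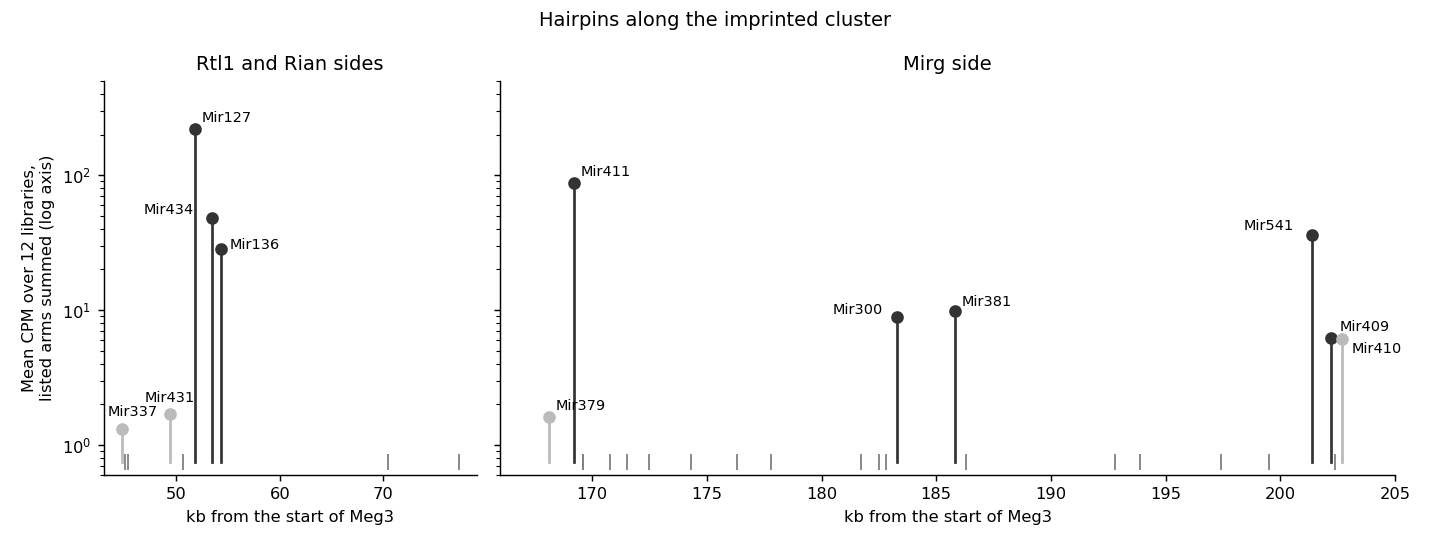
Hairpins of the cluster by their distance from the start of the noncoding gene Meg3 (x axis, kb, plus strand) and the mean CPM of their listed arms over 12 libraries (y axis, log scale), with dark stems for members, grey stems for other listed hairpins and ticks for hairpins with no listed arm. The 3 Rtl1 antisense hairpins of the members stand within 51.8 to 54.3 kb, and the members of the Mirg side spread over 169.2 to 202.2 kb.

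The cluster made up a very small part of the liver's miRNAs. The 10 members together held 0.0331% to 0.0541% of the summed CPM of a library, or 334.8 to 546.8 CPM. miR-127-3p, one of the miRNAs that match Rtl1, led with 219.1 ± 36.0 CPM (SD, n = 12) and ranked 97 of 386. It was followed by miR-411-5p at 87.7 ± 20.6, miR-434-3p at 39.1 ± 9.21, miR-541-5p at 35.9 ± 12.9 and miR-136-3p at 18.8 ± 4.47 CPM. The other 5 lay close together, with means from 6.19 CPM for miR-409-3p to 9.84 CPM for miR-381-3p. Neighbours from miR-381-3p (9.84 ± 3.42) through miR-136-5p (9.53 ± 2.61) and miR-434-5p (9.12 ± 1.71) to miR-300-3p (8.82 ± 1.27) differed by less than their SD, as did miR-434-3p and miR-541-5p. Levels of different miRNAs are given as CPM of mature arms of 21 to 25 bases, and adapter ligation can favour one sequence over another, so their order need not be that of the amounts in the tissue.

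Between libraries the members varied by 1.64-fold (miR-300-3p) to 3.93-fold (miR-409-3p) from lowest to highest. The coefficient of variation was 14.4% for miR-300-3p, 16.4% for miR-127-3p, 36.0% for miR-541-5p and 45.2% for miR-409-3p. Libraries held 5.45 to 22.2 M reads (mega-reads of listed miRNAs, median 13.2). A member's CPM thus rested on 31 reads at the least, for miR-409-3p, and on 6200 at the most, for miR-127-3p. All members were listed above 0 in every library, as were all 386 rows.

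Both arms of a hairpin are cut from 1 precursor in equal number, and the arm that is loaded and kept accumulates. miR-434-3p exceeded miR-434-5p by 2.29-fold to 5.14-fold over the 12 libraries. CO replicate 3 had the lowest ratio, and the next lowest was 3.42 in OO replicate 2. miR-136-3p exceeded miR-136-5p by 1.64-fold to 2.28-fold. That order of the arms thus held in each of the 12 libraries for both hairpins. The 3p:5p ratio of miR-434 averaged 4.06 ± 0.772 in OO, 3.79 ± 1.30 in CO, 4.90 ± 0.145 in OC and 4.53 ± 0.688 in CC (SD, n = 3 each), and the groups were not tested for it.

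**Figure D2:**
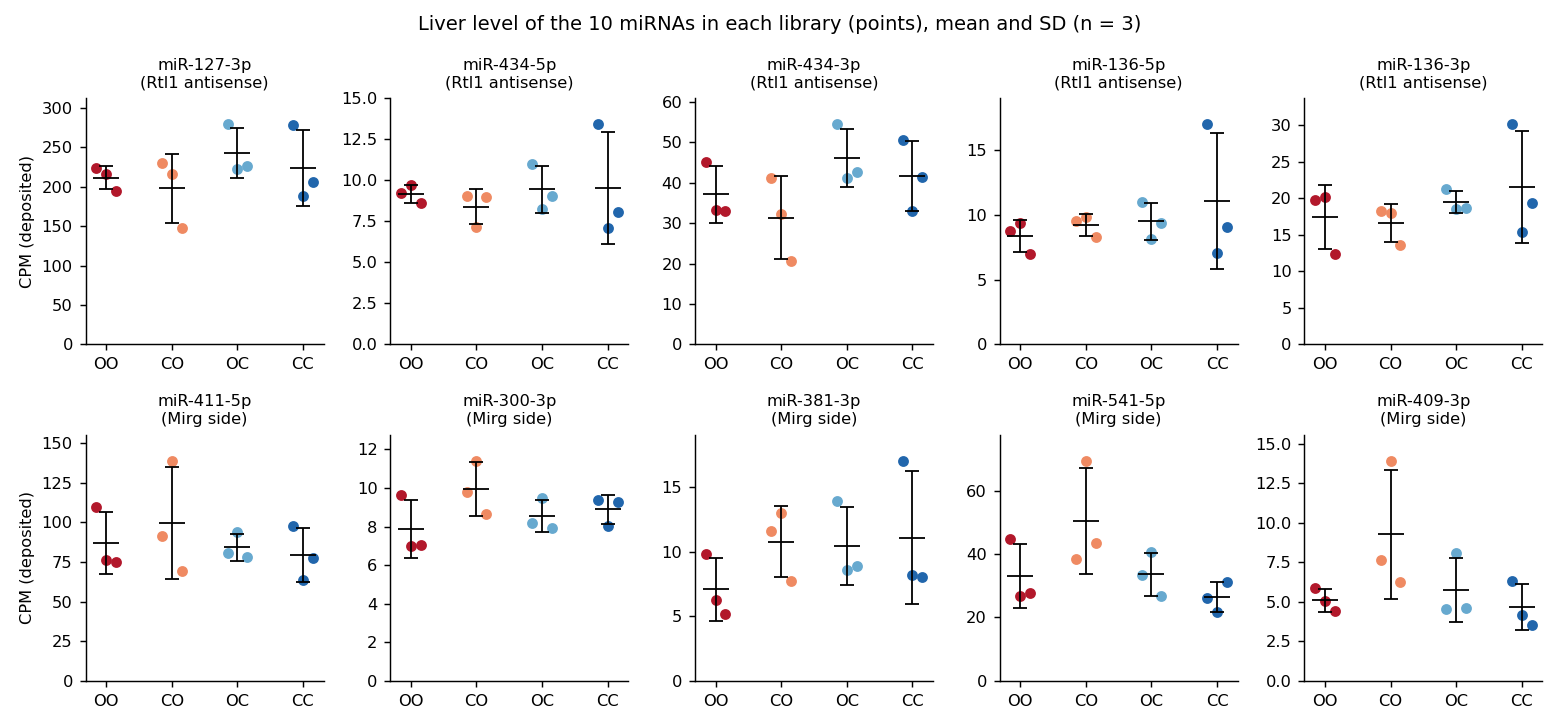
CPM of each member (y axis, from 0) in the OO, CO, OC and CC groups (x axis), with 1 point per library and bars for the mean and SD of 3 libraries. The points of CO stand above those of CC for miR-541-5p only, and for every other member the 2 groups overlap.

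Members of the same side of the locus varied together across libraries more than members of different sides. Over the 12 libraries, on log2(CPM + 1), the median Pearson r was 0.72 between members antisense to Rtl1 (10 pairs, 0.49 to 0.93) and 0.74 between members of the Mirg side (10 pairs, 0.29 to 0.81). Between the groups it was 0.17 (25 pairs, -0.28 to 0.80). Pairs of rows outside the domain at the members' levels had a median r of 0.17 (17020 pairs of 185 rows). These values are descriptions over libraries that share their depth and scaling with every row in them, and no test was made.

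miR-127-3p and miR-434-3p, from neighbouring hairpins, ran most closely together (r = 0.93, Spearman's rho = 0.83). The arms of Mir136 had r = 0.90 (rho = 0.69), whereas those of Mir434 had r = 0.49 (rho = 0.64), the lowest within the Rtl1 group. On the Mirg side miR-541-5p and miR-409-3p, from neighbouring listed hairpins, had r = 0.81 (rho = 0.56), and miR-411-5p and miR-409-3p r = 0.80 (rho = 0.68). miR-381-3p stood between the groups. Its r was 0.80 with miR-136-5p (rho = 0.76), 0.68 with miR-127-3p (rho = 0.77) and 0.29 with miR-541-5p of its own side (rho = 0.18).

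The split was weaker once group differences were taken out. With each library set as its deviation from its group mean, the median r was 0.76 within the Rtl1 group, 0.72 within the Mirg side and 0.46 between them. Without CO replicate 2 and CC replicate 1, the libraries where several members were highest, the medians were 0.70, 0.57 and 0.27. With median-of-ratios scaling they were 0.72, 0.77 and 0.20. For pairs of other rows at these levels the median r was 0.21, 0.20 and 0.009 in the same order of settings. These settings were chosen after seeing the data.

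**Figure D3:**
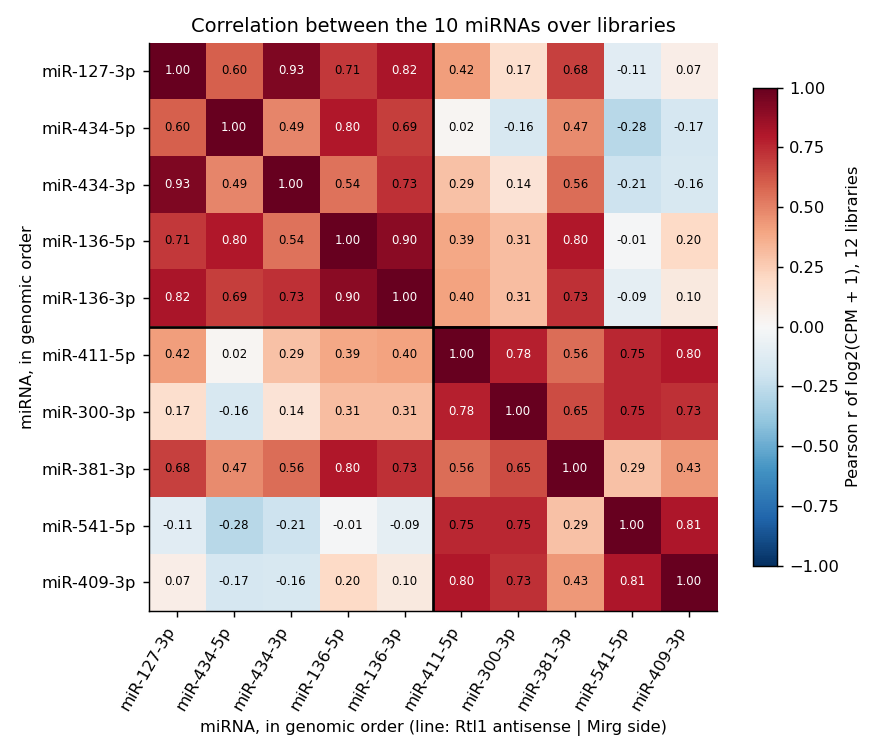
Pearson r of log2(CPM + 1) over 12 libraries for each pair of members, ordered by position with the Rtl1 antisense members first. High values fill the 2 blocks on the diagonal, with medians of 0.72 and 0.74, against 0.17 between the blocks, where miR-381-3p has the highest values.

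Summed over its 5 members, the Rtl1 antisense group stood at 306.4, 288.4 and 255.9 CPM in OO, at 308.5, 282.98 and 199.4 CPM in CO, at 377.1, 298.2 and 306.1 CPM in OC and at 390.2, 250.4 and 283.5 CPM in CC. The sum was lowest in CO replicate 3 and highest in CC replicate 1 and OC replicate 1, and all 4 groups overlapped. The Mirg side stood at 179.8, 121.4 and 119.7 CPM in OO, at 158.6, 246.2 and 135.5 CPM in CO, at 140.97, 160.4 and 126.1 CPM in OC and at 156.6, 105.5 and 129.6 CPM in CC. Its highest value was in CO replicate 2, and the groups overlapped here too.

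Within a library the Mirg side and the Rtl1 group can be set against each other without regard to scaling. The ratio of the sums was 0.587, 0.421 and 0.468 in OO, 0.514, 0.870 and 0.680 in CO, 0.374, 0.538 and 0.412 in OC and 0.401, 0.421 and 0.457 in CC. All 3 CO libraries lay above all 3 CC libraries, and OO overlapped with OC and with CO. As the ratio was formed with these values in view, it is given without a test.

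**Figure D4:**
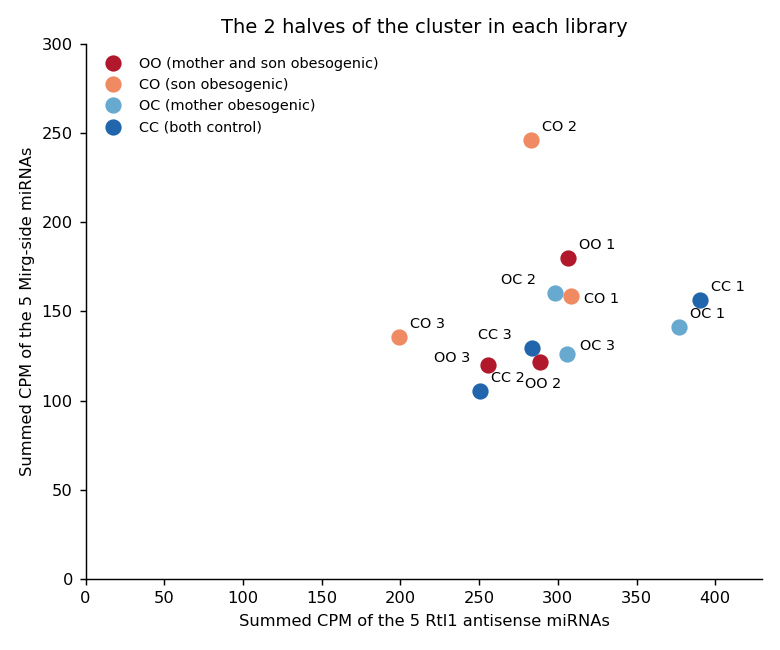
Summed CPM of the 5 Mirg side members (y axis) against that of the 5 Rtl1 antisense members (x axis), 1 point per library, coloured by group. CO replicate 2 stands highest at 246.2 CPM on the Mirg side, and CO replicate 3 lies furthest left at 199.4 CPM of the Rtl1 group.

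In sons of control-fed mothers, the largest difference of a member between obesogenic and control diet was that of miR-541-5p. The CO libraries had 38.4, 69.3 and 43.5 CPM of miR-541-5p, against 26.2, 21.7 and 31.2 CPM in CC. All CO values lay above all CC values, and CO replicate 2 was the highest of the 12 libraries. The difference was 0.88 on the log2(CPM + 1) scale (SE 0.264, 95% interval 0.30 to 1.46), with a limma adjusted p of 0.166. It did not pass the threshold of an adjusted p under 0.05. Without CO replicate 2 the difference was 0.63, and with TMM scaling 0.97. Over the alternatives the limma adjusted p ran from 0.135 with TMM scaling to 0.394 with CO and CC fitted alone.

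miR-409-3p, encoded next to miR-541 and also in intron sequence of Mirg, had 7.64, 13.9 and 6.24 CPM in CO, against 6.31, 4.15 and 3.54 CPM in CC. CO replicate 2 was again the highest library, and CO replicate 3 lay just below CC replicate 1, so the groups overlapped. The difference was 0.82 (SE 0.293, limma adjusted p = 0.211) and 0.51 without CO replicate 2. miR-411-5p, of the same side, had 91.2, 138.7 and 69.4 CPM in CO and 97.6, 63.4 and 77.6 CPM in CC, with partial overlap. Its difference of 0.29 (SE 0.25) was 0.022 without CO replicate 2.

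The groups along the locus leaned apart in this comparison without passing a test. All 5 Mirg side members had a log2 difference above 0 in CO against CC, with a median of 0.29. All 5 Rtl1 antisense members had lower values, from -0.43 for miR-434-3p to -0.12 for miR-434-5p, with a median of -0.18. The median of all 386 rows was -0.052, and both directions were kept under TMM and median-of-ratios scaling. Members of a side share the libraries and varied together, so 5 signs alike are not 5 independent observations. Without CO replicate 3, miR-127-3p stood at 0.013, and without CC replicate 1 miR-136-5p and miR-434-5p also changed sign, to 0.17 and 0.12. miR-381-3p, at 0.012 (SE 0.317), changed sign in 4 of 17 alternatives. Its mean on the CPM scale was 10.8 in CO and 11.1 in CC, so its direction depended on the scale.

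By limma with Benjamini-Hochberg adjustment over all rows, 0 of 10 members passed in CO against CC, where 0.777% of all rows did. At an unadjusted p under 0.05 there were 2 of 10 members, miR-541-5p and miR-409-3p, against 16.3% of all rows in either direction. Both were higher in CO, as were 3.11% of all rows at that p, since most such rows were lower. miR-409-3p was itself a member through its CO level, so its part in this count is not independent of the choice. Groups did not overlap for 1 of 10 members, against 22.0% of all rows, or 5.70% with CO higher.

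Marker miRNAs of cell types were measured in the same libraries. Of the marker lists, only the hepatocyte and endothelial sums did not overlap between CO and CC. miR-375-3p, a miRNA of pancreatic islets and other endocrine cells, had 35.8, 1061 and 266.2 CPM in CO, against 17.7 to 197.3 CPM in CC. miR-133a-3p, a muscle miRNA and the other large row of the same list, had 88.8, 352.1 and 84.4 CPM in CO, against 70.8 to 743.2 CPM in CC, and miR-1a-3p, also of muscle, had 4.81 to 21.8 CPM in CO and 2.68 to 32.2 CPM in CC. The muscle, neural and pancreas marker list, with 4 of 8 rows listed and none of the 4 at 0, summed to 131 to 1436 CPM in CO and 272 to 795 CPM in CC. The 5 hepatocyte markers, all listed, summed to 364908 to 405060.3 CPM in CO and 350644 to 357321 CPM in CC. Its largest row, miR-192-5p, alone had 255728, 239517 and 295048 CPM in CO and 230695 to 239389 CPM in CC. The next, miR-148a-3p, had 89162, 95301 and 77282 CPM in CO and 85911 to 86807 CPM in CC. miR-194-5p had 3704 CPM in CO replicate 3, against 6672 to 7440.3 CPM in CC. miR-122-5p did not follow the sum, with 20930.1, 22481 and 28851 CPM in CO, against 25255, 25112 and 23582 CPM in CC. For miR-802-5p the values were 385.6, 619.6 and 174.95 CPM in CO and 446.6, 236.5 and 296.1 CPM in CC, with overlap. The erythroid markers, with 4 of 4 rows listed, summed to 4252 to 8999 CPM in CO and 2862 to 4255 CPM in CC. The leukocyte markers, with 6 of 6 rows listed, summed to 2270.1 to 3028 CPM in CO and 2831 to 3519 CPM in CC. Rows of that list did not move alike. The lymphocyte miRNA miR-150-5p had 147.5, 214.7 and 147.05 CPM in CO, all below the 284.2, 403.9 and 414.04 CPM in CC. In contrast, miR-223-3p had 149.1, 189.7 and 86.3 CPM in CO, against 116.5, 123.01 and 107.5 CPM in CC. For miR-146a-5p the values were 268.3, 301.1 and 517.7 CPM in CO and 320.1, 314.5 and 394.4 CPM in CC. Both endothelial markers were listed, with summed levels of 15584 to 22984 CPM in CO and 24304 to 27100.2 CPM in CC. Mesenchymal markers summed to 38367 to 48905 CPM in CO and 32650.2 to 50426 CPM in CC. Epithelial markers summed to 480.8 to 871.3 CPM in CO and 421.6 to 669.5 CPM in CC. CO replicate 3 was at once the shallowest library, the lowest in endothelial markers and the lowest for miR-127-3p and miR-434-3p, and its rows had a median deviation of -0.20 on the log2 scale. The part of these measures in the members' values was not tested. In whole liver, fewer cells of a type and less RNA per cell cannot be told apart.

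In sons of obesogenic-fed mothers, no member passed the test for the son's own diet, and all groups overlapped. miR-541-5p had 44.8, 26.7 and 27.8 CPM in OO, against 33.4, 40.5 and 26.8 CPM in OC, with overlap and a log2 difference of -0.039 (SE 0.264, 95% interval -0.62 to 0.54). miR-127-3p had 223.5, 215.9 and 194.99 CPM in OO, against 279.4, 222.1 and 226.2 CPM in OC, a difference of -0.19 (SE 0.193). The largest difference was that of miR-381-3p, at 9.79, 6.27 and 5.16 CPM in OO and 13.9, 8.55 and 8.87 CPM in OC (-0.51, SE 0.317, limma adjusted p = 0.851). OO replicates 2 and 3 lay below all OC libraries, and OO replicate 1 lay among them.

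In OO against OC, 9 of 10 members had lower values, with a median of -0.14 against 0.022 for all rows. limma gave 0 of 10 at an adjusted p under 0.05 (0.518% of all rows) and 0 of 10 at an unadjusted p under 0.05 (7.25%), and the groups overlapped for every member (15.5% of all rows did not). For 9 of 10 members the 95% interval lay within a log2 difference of 1 either way. The exception was miR-381-3p, whose interval ran from -1.21 to 0.18.

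Whether the son's diet went with a different change after the 2 maternal diets was tested by the interaction, (OO - OC) - (CO - CC). miR-541-5p stood at -0.92 (SE 0.374) and miR-409-3p at -0.93 (SE 0.414), with a limma adjusted p of 0.773 for each. Those 2 of 10 members had an unadjusted p under 0.05, against 3.89% of all rows, and 0 of 10 passed, as did 0% of all rows. Of these, miR-409-3p was a member through its CO level, which enters the interaction. The median of all rows was 0.13. Under TMM scaling, where that median was 0.009, miR-541-5p stood at -1.04. All 5 Mirg side members were below 0, at a median of -0.53, and the Rtl1 group had a median of 0.096, which was -0.018 under TMM scaling. Without CO replicate 2, miR-411-5p stood at 0.010. A difference between the maternal diets is therefore not shown for any member.

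Over both maternal diets together, obesogenic-fed sons had a lowest, median and highest miR-541-5p of 26.7, 41.0 and 69.3 CPM, against 21.7, 29.0 and 40.5 CPM in control-fed sons. The ranges overlapped, and the difference was 0.42 (SE 0.187, limma adjusted p = 0.328). miR-434-3p, a miRNA antisense to Rtl1, had 20.6, 33.1 and 45.2 CPM in obesogenic-fed and 33.1, 42.1 and 54.5 CPM in control-fed sons. The ranges again overlapped, with the lowest value in CO replicate 3 (log2 difference -0.37, SE 0.176, limma adjusted p = 0.344). All 5 Rtl1 antisense members were lower in obesogenic-fed sons at a median of -0.19, also under TMM and median-of-ratios scaling. Without CC replicate 1, miR-136-5p and miR-434-5p turned to 0.006 and 0.048.

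For the sons' diet 0 of 10 members passed by limma, against 0.777% of all rows, and 1 of 10 had an unadjusted p under 0.05, against 14.8%. Groups overlapped for all 10 members, while 2.59% of all rows were separated. Every member's 95% interval lay within a log2 difference of 1 either way, with half-widths of 0.25 to 0.49.

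The mother's diet was compared first in control-fed sons. miR-127-3p had 279.4, 222.1 and 226.2 CPM in OC, against 279.1, 187.9 and 205.6 CPM in CC, and the highest library of each group was at nearly the same level. Its log2 difference was 0.13 (SE 0.193). miR-541-5p, at 33.4, 40.5 and 26.8 CPM in OC and 26.2, 21.7 and 31.2 CPM in CC, had the largest difference, 0.33 (SE 0.264). By limma 0 of 10 members passed in OC against CC (0% of all rows), 0 of 10 had an unadjusted p under 0.05 (1.04%), and all overlapped (8.81% of all rows did not). The median log2 difference over the members was 0.061, with 6 above 0 and 4 below.

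In obesogenic-fed sons the Mirg side members had lower values when the mother too had been obesogenic-fed, and none passed the test. miR-409-3p had 5.85, 5.02 and 4.39 CPM in OO, against 7.64, 13.9 and 6.24 CPM in CO. All OO values lay below all CO values, with OO replicate 1 and CO replicate 3 close together. The log2 difference was -0.69 (SE 0.293, limma adjusted p = 0.371) and -0.38 without CO replicate 2. miR-541-5p had 44.8, 26.7 and 27.8 CPM in OO, against 38.4, 69.3 and 43.5 CPM in CO. OO replicate 1 lay among the CO values, and the difference was -0.58 (SE 0.264, limma adjusted p = 0.371). miR-300-3p, at 9.62, 6.97 and 7.07 CPM in OO and 9.77, 11.4 and 8.63 CPM in CO, differed by -0.31 (SE 0.164, limma adjusted p = 0.381).

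All 5 Mirg side members were lower in OO than in CO, with a median of -0.56, while the median of all rows was 0.13. Without CO replicate 2, miR-411-5p turned from -0.16 to 0.11 and miR-541-5p shrank to -0.34, so the shared direction rested in part on that library. Under TMM scaling the Mirg side median was -0.69 and that of all rows -0.003. The Rtl1 antisense members had no stable direction, with 4 of 5 higher at the deposited scaling and 1 of 5 higher under TMM or median-of-ratios scaling. CO libraries serve in both this comparison and CO against CC, so the higher CO values of miR-541-5p and miR-409-3p enter both. The CO level of miR-409-3p also made it a member, so its part in the counts that follow is not independent of the choice. By limma 0 of 10 members passed (0% of all rows), 2 of 10 had an unadjusted p under 0.05 (12.2%), both lower (2.33% of all rows), and 1 of 10 did not overlap (19.2%), with OO lower (2.85%).

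Averaged over the sons' diets, the mother's diet gave 0 of 10 members by limma (0% of all rows) and 0 of 10 at an unadjusted p under 0.05 (6.99%). Groups overlapped for all 10 (0.777% of all rows did not). The lowest, median and highest miR-127-3p were 194.99, 222.8 and 279.4 CPM with obesogenic-fed mothers and 147.97, 210.7 and 279.1 CPM with control-fed mothers, a log2 difference of 0.12 (SE 0.137). The members' differences ranged from -0.29 for miR-381-3p to 0.22 for miR-434-3p, and all 10 intervals lay within 1 either way.

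With both diets set against neither, 3 members had higher and 7 lower values, at a median of -0.11 against 0.051 for all rows. miR-127-3p had 223.5, 215.9 and 194.99 CPM in OO, against 279.1, 187.9 and 205.6 CPM in CC, a log2 difference of -0.065 (SE 0.193). The largest difference belonged to miR-381-3p, with 9.79, 6.27 and 5.16 CPM in OO, against 17.0, 8.16 and 8.07 CPM in CC (-0.54, SE 0.317, limma adjusted p = 0.514). CC replicate 1 stood far above the other CC libraries, and without it the difference was -0.22. In OO against CC 0 of 10 members passed by limma (0.259% of all rows), 0 of 10 had an unadjusted p under 0.05 (12.2%), and all overlapped (22.0% of all rows did not). The values of OO and CC are used in other comparisons above as well.

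**Figure D5:**
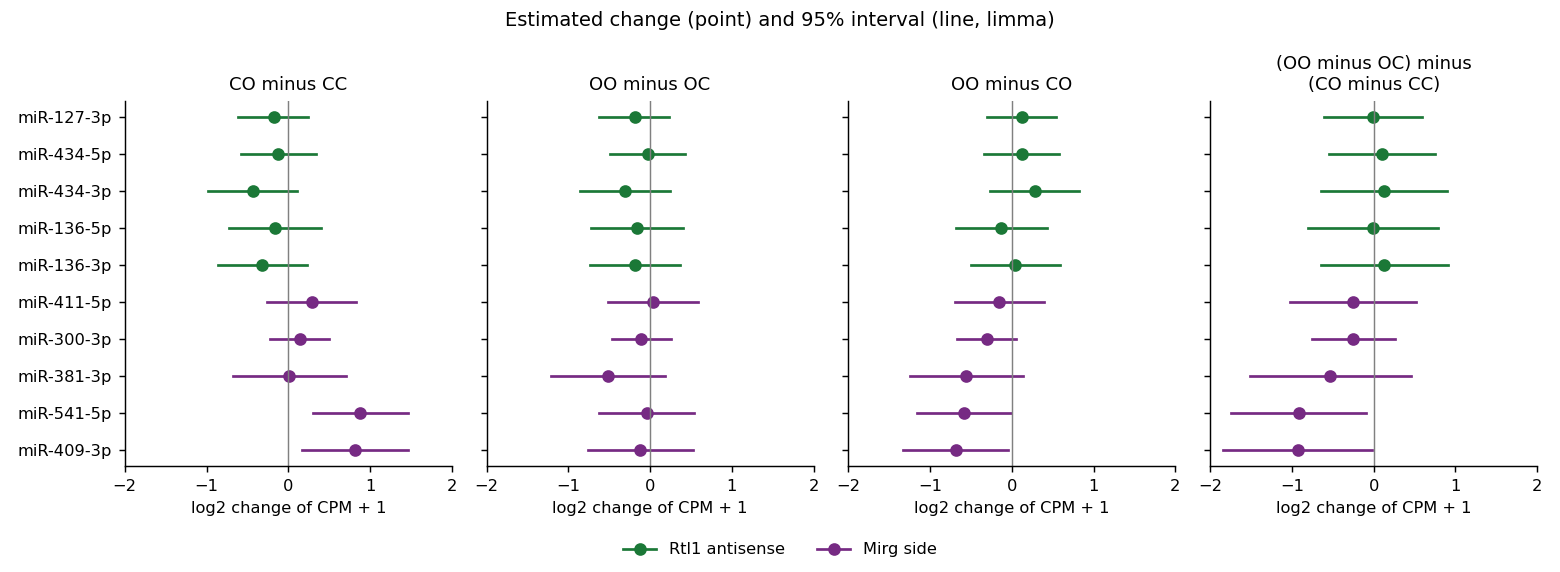
Log2 differences of the 10 members with 95% intervals (x axis, limma on log2(CPM + 1)) in CO minus CC, OO minus OC, OO minus CO and the interaction, with Rtl1 antisense members in green and Mirg side members in purple. miR-541-5p and miR-409-3p stand furthest from 0 in CO against CC, at 0.88 and 0.82, and no member passed an adjusted p under 0.05.

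Other rows of the domain give the setting of the members. The rule's 4 further rows were miR-410-3p at 6.15 ± 1.26 CPM, miR-431-5p at 1.69 ± 0.455, miR-379-5p at 1.61 ± 0.567 and miR-337-5p at 1.32 ± 0.546 (SD, n = 12). Of 22 further miRNA numbers of the domain, miR-1247-5p (26.6 ± 11.5 CPM) and miR-134-5p (1.71 ± 0.856 CPM) were listed. None of the 6 passed in any of the 8 contrasts by limma. At an unadjusted p under 0.05 there were 3 of 6 in CO against CC, where 16.3% of all rows had one. There was 1 of 6 each in OO against OC (7.25% of all rows), OO against CO (12.2%), OO against CC (12.2%), the sons' diet (14.8%) and the mothers' diet (6.99%). There were 0 of 6 in OC against CC (1.04%) and the interaction (3.89%).

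miR-379-5p and miR-134-5p, both of the Mirg side of the locus, had the same order of CO and CC as miR-541-5p. Of all rows, 5.70% were separated in that direction. The more abundant miR-410-3p of the same side was not. It had 7.41, 7.55 and 5.32 CPM in CO, against 6.01, 5.89 and 5.53 CPM in CC (0.18, SE 0.206, limma adjusted p = 0.718). miR-379-5p, the first miRNA of that side, had 2.29, 2.61 and 1.65 CPM in CO, against 0.827, 0.803 and 1.55 CPM in CC. The groups did not overlap, and the log2 difference was 0.64 (SE 0.215, limma adjusted p = 0.192). miR-134-5p, which in rat neurons limits the growth of dendritic spines, had 2.06, 3.94 and 2.39 CPM in CO, against 1.28, 1.61 and 1.33 CPM in CC (0.63, SE 0.256, limma adjusted p = 0.252), again with no overlap. In OO it had 1.92, 1.39 and 0.477 CPM, all below CO (-0.77, SE 0.256, limma adjusted p = 0.307). These rows rest on few reads, 5 at the least for miR-134-5p and 6 for miR-379-5p.

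miR-1247-5p had lower values in obesogenic-fed sons without passing the test. It is encoded at the far end of the domain, on the minus strand at chr12:110278048-110278129, in an exon of Dio3os, a noncoding RNA beside the deiodinase gene Dio3. Obesogenic-fed sons had a lowest, median and highest of 15.8, 16.6 and 27.7 CPM, against 21.0, 35.8 and 50.6 CPM in control-fed sons. The ranges overlapped through OO replicate 3. The log2 difference was -0.86 (SE 0.208, limma adjusted p = 0.0765), and without OC replicate 2 it was -1.0 and passed (adjusted p = 0.0300). In CO the 3 libraries had 17.6, 15.8 and 16.7 CPM, against 50.6, 33.9 and 26.1 CPM in CC, a difference of -1.04 (SE 0.294, limma adjusted p = 0.166), and the groups did not overlap.

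Rows outside the domain whose profile over the 12 libraries was most like the members' mean profile were miR-133b-3p (r = 0.70, rho = 0.81), miR-19b-3p (0.68 and 0.60), miR-133a-3p (0.62 and 0.65), miR-145a-5p (0.59 and 0.56) and miR-296-5p (0.59 and 0.53). They were picked as the 5 highest of all rows, so no test applies. Without CC replicate 1 and OO replicate 3, the libraries farthest from the median, r was 0.57, 0.37, 0.47, 0.56 and 0.66 in that order. miR-133a-3p, best known from skeletal and heart muscle, was highest in OO replicate 1 at 1137 CPM and in CC replicate 1 at 743.2 CPM, both libraries with high values of several members, and its lowest level was 20.5 CPM in OO replicate 2. Its part in the members' values was not tested. With the sides taken apart, no miR-133 row was among the 5 most alike of either. For the Rtl1 antisense members they were led by miR-338-3p (r = 0.79) and miR-145a-5p (0.75). For the Mirg side they were led by miR-148a-3p (0.66) and miR-190b-5p (0.61). miR-133a-3p had r = 0.56 with the Rtl1 antisense profile and 0.44 with that of the Mirg side.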

How the data were processed

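Liver small RNA was measured in 12 libraries, 3 in each of 4 groups taken from the diets in the labels. Per the labels' protocols, a miRNeasy kit served for extraction and a TruSeq small RNA kit for the libraries. The submitters' processing notes list Bowtie, version 1.2.3. Not given in the sources used here are the build, the miRNA reference and the rule for reads matching several miRNAs. The file that the authors deposited holds CPM of 386 mature miRNA rows, none at 0. Each column's values were whole multiples of 1 step (tolerance 0.001 reads), which gave the depth.

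All rows were fitted together on the log2(CPM + 1) scale with limma 3.58.1 (R 4.3.3), with a mean-variance trend, 4 group means and 8 contrasts, two-sided, with Benjamini-Hochberg adjustment over all rows in a contrast. This scale understates changes of miRNAs at low CPM. The procedure was tested on simulated data. Tables and plots came from numpy 2.4.6, pandas 2.3.3 and matplotlib 3.10.9 under Python 3.11.15. Alternatives were TMM and median-of-ratios factors computed from the CPM, pseudocounts of 0.25 and 5, a mean of at least 10 CPM, pairwise fits and leaving out each library. Gene positions are from GENCODE vM21 and miRNA sequences from RefSeq (GRCm38.p6). The members, lists and rule for named miRNAs (the members, the next ranks, other domain rows and the 5 most alike rows) were chosen with earlier results of these data known.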

Additional observations from a re-analysis of the deposited data

Results flagged for a closer look

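In the sets of 6 libraries that share the sons' or the mothers' diet, 40 such sets of member values were checked for a library far from the others, and 6 were found by Dixon's criterion. Chance alone gives about 1 in 20 such sets, and the sets share libraries. With control-fed mothers, CC replicate 1 stood apart for 3 Rtl1 antisense members, at 30.1 CPM of miR-136-3p (next value 19.3), 17.0 CPM of miR-136-5p (next 9.82) and 13.4 CPM of miR-434-5p (next 9.01). With obesogenic-fed mothers, OC replicate 1 was high for miR-127-3p at 279.4 CPM (next 226.2), and OO replicate 3 was low for miR-136-3p at 12.3 CPM (next 18.5). Among obesogenic-fed sons, CO replicate 2 had 13.9 CPM of miR-409-3p (next 7.64).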

How the results depend on the processing

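The count of members called was 0 by limma in all 8 contrasts under each alternative run, with a smallest adjusted p of 0.135 (miR-541-5p, CO against CC, TMM factors). For the 6 other domain rows it was 0 as well, except for the sons' diet, where leaving out 1 library at a time gave 0 to 1, the 1 being miR-1247-5p without OC replicate 2. In CO against CC miR-541-5p ranged from 0.63 (without CO replicate 2) to 1.05 (without CO replicate 1), and miR-409-3p from 0.51 to 1.03, both above 0 throughout. The filter at 10 CPM left 261 rows and 5 of 10 members. Ranked by median CPM, 9 of 10 members were kept, and miR-410-3p took the place of miR-409-3p. The planned count model, on reads recovered from the CPM steps, was not run. No paired analysis was possible because replicate numbers follow accession order and a shared title stem ties only OC replicate 2 to OO replicate 3. With 3 libraries a group, intervals of pairwise differences reached 0.36 to 0.69 either way on the log2 scale.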
